A study of Mus musculus with 12 samples.

Results

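Immunoglobulin variable (V) segment genes were examined in 12 RNA sequencing libraries of mouse bone marrow. Members were the rows whose symbol begins with Ighv, Igkv or Iglv and that reached 1 TPM or more in at least 2 of the 12 libraries. TPM is the length-corrected share of a gene among a library's transcripts. The rule found 5 members among 28987 gene rows: the kappa segments Igkv11-106, Igkv1-115, Igkv4-71 and Igkv4-69 and the heavy segment Ighv6-7. Levels in these libraries thus chose the members. Only 7 rows carried a V segment name, against 346 named V segments in the mouse annotation GENCODE vM21 (2.02%). They were 2 of 183 heavy, 5 of 160 kappa and 0 of 3 lambda segments. The other segments were not analysed here, so breadth and dominance below describe these 7 rows and not a whole repertoire. The remaining rows, Ighv13-2 and Igkv13-87, were listed at 0 in all 12 libraries. No row lay near the threshold: the second-highest level was 19.5 TPM in Ighv6-7 and 153 TPM in Igkv4-69, the members closest to it. Without the 4 wild type libraries the kappa members still met the rule, with 4 to 6 mutant libraries at 1 TPM or more, whereas Ighv6-7 had 1 such library.

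All mice had the C57BL/6 background. The 6 groups of 2 libraries were haematopoietic stem and progenitor cells (HSPC) of wild type, RUNX1 mutant, CBL mutant and CBL/RUNX1 mutant (double mutant) genotype, and Ly6G+ myeloid cells of wild type and CBL/RUNX1 mutant genotype. HSPC were enriched from marrow by positive selection for CD117, the product of Kit, and the mutant clone was obtained by FACS, as were the Ly6G+ cells. The series calls it a clone of myelodysplastic syndrome. How the mutations were introduced, and the age of the mice, are not given in the sources used here. Any difference in sorting between mutant and wild type cells cannot be told apart from genotype.

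A V segment is one of many gene pieces from which a B cell assembles the antigen-binding domain of an antibody chain. In the heavy chain locus a V segment is joined to a D and a J segment, and in the kappa and lambda light chain loci to a J segment, after which RNA splicing links the product to a constant gene. Each B cell clone carries its own choice, and plasma cells, which secrete antibody and lodge in bone marrow, contain very large amounts of these transcripts. Antibody genes are assembled in cells of the B lineage.

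The V exons of the members are shown because their likeness to other segments limits what a level per segment can mean. A pseudoaligner such as kallisto assigns a read by short exact words, and capitals mark bases lying in a 31-base word that also occurs in another annotated gene. Sequences are from GENCODE vM21 on GRCm38, cover the last 300 bases of the exon where it is longer, and read 5′ to 3′ on the gene's strand. Igkv11-106 lies at chr6:68339696-68339995 (plus strand), Igkv1-115 at chr6:68161417-68161716 (plus strand), Igkv4-71 at chr6:69243160-69243459 (minus strand), Igkv4-69 at chr6:69283794-69284092 (minus strand) and Ighv6-7 at chr12:114455626-114455925 (minus strand).
Igkv11-106: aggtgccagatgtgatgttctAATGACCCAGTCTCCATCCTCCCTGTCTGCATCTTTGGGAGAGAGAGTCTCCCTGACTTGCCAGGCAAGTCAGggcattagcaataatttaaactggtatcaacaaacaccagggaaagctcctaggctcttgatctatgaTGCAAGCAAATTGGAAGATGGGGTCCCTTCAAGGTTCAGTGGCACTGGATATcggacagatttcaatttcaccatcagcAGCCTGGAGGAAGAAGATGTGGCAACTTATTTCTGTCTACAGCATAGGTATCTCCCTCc
Igkv1-115: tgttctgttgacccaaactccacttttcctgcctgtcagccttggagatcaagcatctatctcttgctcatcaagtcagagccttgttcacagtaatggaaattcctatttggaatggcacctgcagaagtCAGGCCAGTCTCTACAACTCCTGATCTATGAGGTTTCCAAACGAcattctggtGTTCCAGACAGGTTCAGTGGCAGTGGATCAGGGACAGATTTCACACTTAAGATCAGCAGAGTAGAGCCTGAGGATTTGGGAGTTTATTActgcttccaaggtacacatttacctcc
Igkv4-71: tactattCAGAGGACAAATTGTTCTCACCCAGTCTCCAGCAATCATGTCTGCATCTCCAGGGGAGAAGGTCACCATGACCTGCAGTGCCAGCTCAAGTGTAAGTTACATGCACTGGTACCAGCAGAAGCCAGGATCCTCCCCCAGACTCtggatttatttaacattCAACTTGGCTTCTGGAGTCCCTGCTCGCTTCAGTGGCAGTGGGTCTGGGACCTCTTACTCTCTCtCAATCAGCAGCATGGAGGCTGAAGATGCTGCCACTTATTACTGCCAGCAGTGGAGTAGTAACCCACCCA
Igkv4-69: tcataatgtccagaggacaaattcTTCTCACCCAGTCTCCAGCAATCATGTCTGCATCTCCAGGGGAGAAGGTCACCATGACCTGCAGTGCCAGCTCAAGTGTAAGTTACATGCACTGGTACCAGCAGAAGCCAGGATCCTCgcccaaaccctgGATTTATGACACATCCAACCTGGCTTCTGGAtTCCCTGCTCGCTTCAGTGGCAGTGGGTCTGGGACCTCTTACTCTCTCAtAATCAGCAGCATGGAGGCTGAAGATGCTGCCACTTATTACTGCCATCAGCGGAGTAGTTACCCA
Ighv6-7: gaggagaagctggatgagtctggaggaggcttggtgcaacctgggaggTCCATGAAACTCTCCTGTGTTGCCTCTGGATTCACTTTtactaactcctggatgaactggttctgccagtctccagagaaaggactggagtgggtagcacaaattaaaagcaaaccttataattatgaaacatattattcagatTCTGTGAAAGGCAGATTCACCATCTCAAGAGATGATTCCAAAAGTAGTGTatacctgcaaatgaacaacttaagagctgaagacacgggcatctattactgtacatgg

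Igkv4-71 and Igkv4-69 carried the most capitals. Of the 324 words of the Igkv4-71 transcript, 211 (65.1%) occurred in 32 other genes, and of the 318 words of Igkv4-69, 159 (50%) occurred in 31 other genes. The shares were 26.8% of 272 words in Igkv1-115, 21.5% of 316 words in Igkv11-106 and 6.12% of 327 words in Ighv6-7. Every gene that shared a word was a V segment. Apart from Igkv4-71 and Igkv4-69, which share words with each other, none of these genes had a row in the table. The exons of Igkv4-71 and Igkv4-69 matched at 94.0% of 299 aligned bases, whereas the other pairs of kappa members matched at 59.2% to 65.0%. Reads that fall in shared words cannot be traced to one segment by those words, so the levels of Igkv4-71 and Igkv4-69 are uncertain. The same limit holds for a smaller part of the words of the other members. Whether the segments without a row were among the sequences used for read assignment is not known.

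**Figure D1:**
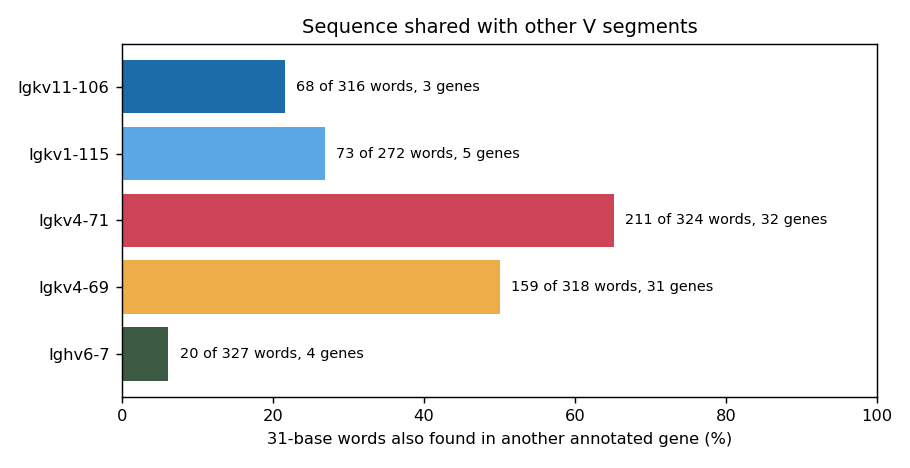
Horizontal bars show, for each of the 5 V segments, the percentage of the 31-base words of its transcript that also occur in another annotated gene, with the counts beside each bar. The share is 65.1% in Igkv4-71 and 6.12% in Ighv6-7.

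Igkv11-106 and Igkv1-115, which had the highest levels among all 7 rows in 8 of the 12 libraries, are annotated as V pseudogenes, that is, as copies not expected to yield a working chain. Both exons nevertheless held a reading frame without a stop codon. Among all annotated V segments the same was true of 16 of 130 pseudogenes and of 215 of 216 V genes. The closest annotated relative of Igkv11-106 was the pseudogene Igkv11-114, with 12 mismatches over 295 aligned bases (95.9% identity), and the closest one annotated as a V gene reached 90.9%. The closest relative of Igkv1-115 was Igkv1-117 (87.4%), a V gene. None of these relatives had a row. The Igkv11-114 exon at chr6:68164629-68164923 (plus strand) is shown over its alignment with Igkv11-106, with capitals marking bases that differ. It lacks 3 bases of Igkv11-106 inside the alignment, which are not marked.
Igkv11-114: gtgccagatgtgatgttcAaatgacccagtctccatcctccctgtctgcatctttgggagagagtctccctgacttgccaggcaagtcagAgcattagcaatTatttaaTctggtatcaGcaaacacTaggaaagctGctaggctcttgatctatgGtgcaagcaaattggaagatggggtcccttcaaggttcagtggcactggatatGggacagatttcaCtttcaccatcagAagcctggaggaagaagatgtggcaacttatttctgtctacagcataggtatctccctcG

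Igkv11-106 had the highest level of any V segment in 3 libraries, among them both wild type HSPC libraries. It stood at 1750 and 1868 TPM in wild type HSPC, 0.946 and 5.38 TPM in CBL mutant, 46.5 and 489 TPM in RUNX1 mutant and 0 and 0 TPM in double mutant HSPC. In Ly6G+ cells it stood at 925 and 1903 TPM in wild type and 6.92 and 22.7 TPM in double mutant libraries. All 4 wild type libraries lay above all 8 mutant libraries. The RUNX1 mutant libraries were the highest of the mutants and lay far apart, at a ratio of 0.0950 between libraries 1 and 2.

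Igkv1-115 was the only V segment above 0 in every library. It stood at 1155 and 1242 TPM in wild type HSPC, 9.23 and 15.0 TPM in CBL mutant, 79.9 and 738 TPM in RUNX1 mutant and 5.99 and 0.542 TPM in double mutant HSPC. The Ly6G+ libraries had 265 and 250 TPM in wild type and 0.968 and 9.80 TPM in double mutant cells. Here RUNX1 mutant library 2 exceeded both wild type Ly6G+ libraries, so wild type and mutant libraries overlapped across cell types but not within HSPC or within Ly6G+ cells.

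Igkv4-71, a V gene, stood at 1179 and 1109 TPM in wild type HSPC, 0 and 37.1 TPM in CBL mutant, 66.6 and 422 TPM in RUNX1 mutant and 0 and 0 TPM in double mutant HSPC. In Ly6G+ cells it stood at 1467 and 389 TPM in wild type and 58.0 and 91.0 TPM in double mutant libraries. It led in both double mutant Ly6G+ libraries, although it was listed at 0 in both double mutant HSPC libraries.

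Igkv4-69, its close relative, was lower in each library where both were above 0. It stood at 153 and 161 TPM in wild type HSPC, 1.10 and 0.732 TPM in CBL mutant, 21.7 and 54.4 TPM in RUNX1 mutant and 0 and 0 TPM in double mutant HSPC. Wild type Ly6G+ libraries had 86.7 and 11.4 TPM, and double mutant Ly6G+ libraries 0 and 7.61 TPM. The wild type Ly6G+ libraries differed more than the wild type HSPC libraries did.

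Ighv6-7, the only heavy chain member, stood at 19.5 and 19.5 TPM in wild type HSPC and was listed at 0 in 5 of the 6 mutant HSPC libraries, the exception being RUNX1 mutant library 2 at 2.37 TPM. The wild type Ly6G+ libraries had 130 and 0.686 TPM, a ratio of 190-fold between libraries of 1 group. The double mutant Ly6G+ libraries, at 0.844 and 0 TPM, overlapped the lower of these.

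**Figure D2:**
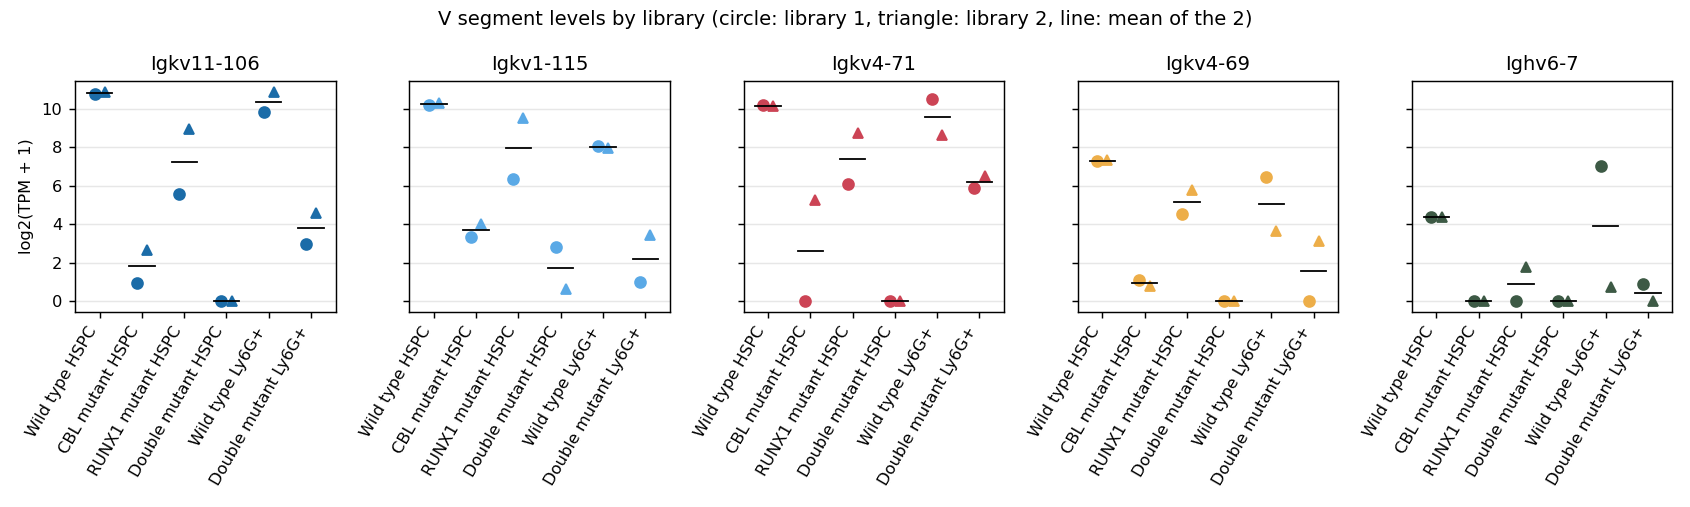
Each panel shows the log2(TPM + 1) level (vertical axis) of 1 V segment in the 6 groups (horizontal axis), with library 1 as a circle, library 2 as a triangle and a line at the mean of the 2. Wild type HSPC libraries lie close together, double mutant HSPC libraries lie at or near 0, and Ighv6-7 in wild type Ly6G+ cells is split between 130 and 0.686 TPM.

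Summed over the rows, V segments made up 0.437% and 0.451% of the TPM of the wild type HSPC libraries (4256 and 4399 TPM) and 0.293% and 0.260% of the wild type Ly6G+ libraries (2874 and 2554 TPM). The sums were 11.3 and 58.2 TPM in CBL mutant, 215 and 1706 TPM in RUNX1 mutant and 5.99 and 0.542 TPM in double mutant HSPC, and 66.7 and 131 TPM in double mutant Ly6G+ cells. Every mutant library lay below every wild type library. The number of segments at 1 TPM or more was 5 and 5 in wild type HSPC, 2 and 3 in CBL mutant, 1 and 0 in double mutant and 4 and 5 in RUNX1 mutant HSPC. Among Ly6G+ libraries it was 5 and 4 for wild type and 2 and 4 for double mutant cells. In bulk samples, fewer cells of the B lineage and less RNA per cell cannot be told apart.

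Composition was then compared as each segment's share of the V segment TPM of its library. In both wild type HSPC libraries 3 segments shared most of it: Igkv11-106 held 41.1% and 42.5%, Igkv4-71 27.7% and 25.2%, and Igkv1-115 27.1% and 28.2%. The shares common to both libraries added to 97.5%. The corresponding overlap was 57.1% between the wild type Ly6G+ libraries, where Igkv4-71 led in library 1 (51.1%) and Igkv11-106 in library 2 (74.5%). It was 35.4% between the CBL mutant libraries, which were led by Igkv1-115 (81.8%) and Igkv4-71 (63.7%), 86.8% between the RUNX1 mutant libraries and 81.2% between the double mutant Ly6G+ libraries. In both double mutant HSPC libraries Igkv1-115 was the only V segment above 0, so its share there was 100%.

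The effective number of V segments, the exponential of the Shannon entropy of the shares, is 1 when a single segment holds all and 5 when 5 are equal. It was 3.38 and 3.36 in wild type HSPC, 1.82 and 2.49 in CBL mutant, 1 and 1 in double mutant and 3.65 and 3.27 in RUNX1 mutant HSPC. Wild type Ly6G+ libraries had 3.23 and 2.14, and double mutant Ly6G+ libraries 1.61 and 2.50. Over all libraries the mean was 2.17 ± 0.984 (SD, n = 8) in mutant and 3.03 ± 0.598 (SD, n = 4) in wild type libraries, with p = 0.141 in a two-sided exact permutation test over 495 relabellings (adjusted p = 0.190 over 3 measures). The leading segment held 72.8% ± 23.9 (SD, n = 8) against 52.3% ± 15.5 (SD, n = 4) of V segment TPM (exact permutation p = 0.158, adjusted p = 0.190). Neither difference passed the test, so a narrower composition in mutant libraries was not shown. Relabelling, here and for the heavy share below, ignored cell type and group, so it treated libraries of different groups as exchangeable. Within HSPC libraries alone the effective number differed by -1.17 (exact permutation adjusted p = 0.286). With 2 libraries against 2 the smallest p of this permutation test would be 0.333, and single groups were not tested.

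**Figure D3:**
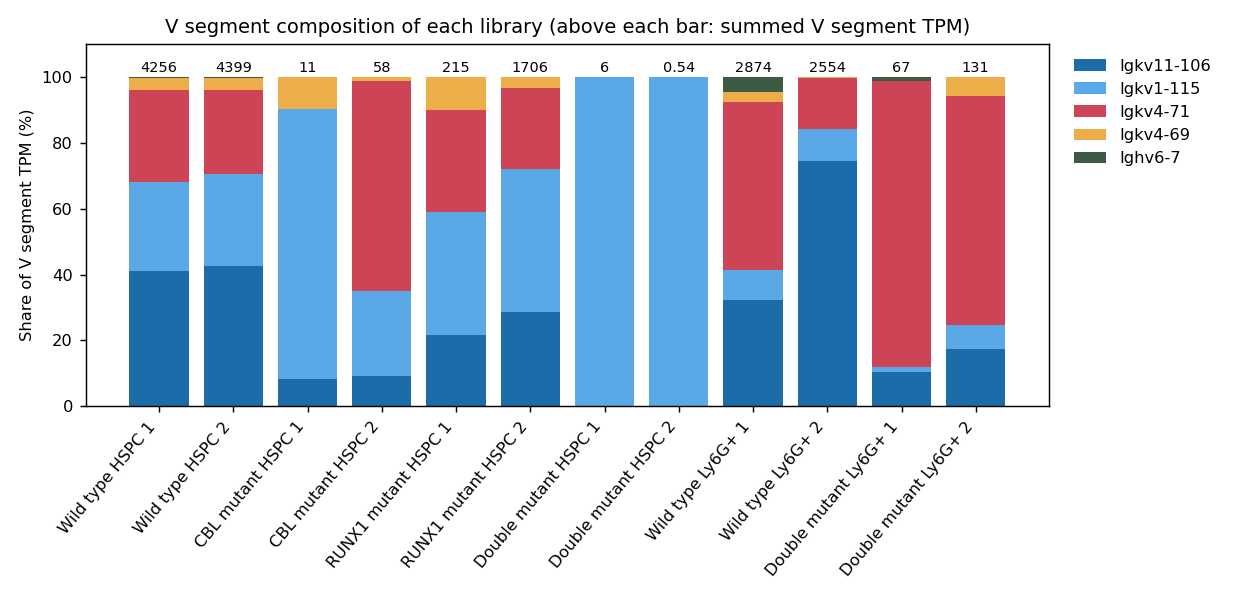
Stacked bars give the share of V segment TPM (vertical axis, percent) held by each of the 5 segments in each of the 12 libraries, with the summed V segment TPM above each bar. The wild type HSPC bars are nearly alike, whereas the double mutant HSPC bars consist of Igkv1-115 alone, on sums of 5.99 and 0.542 TPM.

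Nearly all V segment TPM came from the kappa locus. The heavy share was 0.457% and 0.444% in wild type HSPC, 0 in both CBL mutant and both double mutant HSPC libraries, and 0 and 0.139% in RUNX1 mutant HSPC. Wild type Ly6G+ libraries had 4.52% and 0.0268%, double mutant ones 1.27% and 0. The means were 0.175% ± 0.443 (SD, n = 8) in mutant and 1.36% ± 2.12 (SD, n = 4) in wild type libraries (exact permutation p = 0.190, adjusted p = 0.190). Since 1 heavy row with values above 0 stands for the whole locus, this share does not measure heavy against light chain usage. That row, Ighv6-7, met the membership rule only through wild type libraries, and the wild type mean rests largely on Ly6G+ library 1 (4.52%). Heavy constant genes with a row (Ighm, Ighg1, Ighg2b, Ighg2c, Ighg3 and Ighe) held 7.19% and 6.48% of the summed TPM of heavy constant genes, Igkc and Iglc2 in wild type HSPC. All 6 mutant HSPC libraries were higher, at 16.9% and 14.6% in CBL mutant, 8.40% and 11.95% in RUNX1 mutant and 51.0% and 32.3% in double mutant cells. Wild type Ly6G+ libraries had 11.96% and 14.5%, and double mutant ones 37.2% and 16.1%. Igha and Ighd were not analysed here. No lambda V row was found, so a lambda share of V segment TPM could not be computed. Iglc2, a lambda constant gene, made up 0.857% and 0.807% of the summed TPM of Iglc2 and Igkc, the kappa constant gene, in wild type HSPC, and between 0 and 3.88% in the mutant HSPC libraries. Its share was 0.923% and 1.14% for wild type Ly6G+ libraries, against 14.6% and 1.67% for the double mutant ones.

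Differences between groups were tested with limma on log2(TPM + 1) after scaling between libraries, with Benjamini-Hochberg adjustment over all genes tested, and a gene whose adjusted p lay under 0.05 counts as called. The values are differences in mean log2(TPM + 1), which understate the change of genes near 0 and are no fold where a group is listed at 0. Each group has 2 libraries, which the labels do not tie to named mice, so the p-values rest on spread between libraries. This spread was pooled over all groups of a fit. The p-values of CBL mutant and double mutant HSPC therefore also depend on the gap between the RUNX1 mutant libraries. The 3 HSPC comparisons share the same wild type libraries. Since the members were chosen by level, their counts are set beside those over all genes as a description. Ighv6-7 met the rule only through wild type libraries, so that its lower level in mutants was in part fixed by the rule, and counts against the mutants are given over the 4 kappa segments.

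In CBL mutant HSPC, 2 of the 4 kappa V segments were called lower than in wild type, beside 0.242% of all 12421 genes tested. Igkv11-106 differed by -9.40 ± 1.14 (SE, adjusted p = 0.0252) and Igkv4-69 by -6.75 ± 0.497 (SE, adjusted p = 0.00375). Igkv1-115 (-6.94, adjusted p = 0.0743) and Igkv4-71 (-7.94, adjusted p = 0.145) were not called. With the compared libraries alone in the limma fit Igkv1-115 was called too (adjusted p = 0.000198), beside 662 of 11510 genes. Both mutant libraries lay below both wild type libraries for each of the 4, as they did for 5.8% of all genes. The median difference was -7.44 over the 4 and 0.00 over all genes. Ighv6-7, listed at 0 in both CBL mutant libraries, differed by -4.73. Leaving out any 1 of the 4 compared libraries left 0 segments called, beside 2 to 9 of all genes, with the same signs.

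In RUNX1 mutant HSPC, 0 of the 4 kappa segments were called with limma, beside 0.0403% of all genes called lower, and 3 had an unadjusted p under 0.05, as had 2064 of all 12421 genes in either direction. The differences ran from -4.09 ± 1.14 (SE, adjusted p = 0.229) in Igkv11-106 to -2.67 ± 0.497 (SE, adjusted p = 0.152) in Igkv4-69, with a median of -3.05. Ighv6-7 differed by -3.82. Both RUNX1 mutant libraries lay below both wild type libraries for each of the 4, as they did for 4.22% of all genes. RUNX1 mutant library 1 stands apart from its replicate: the SD of the log2 difference between replicates over 13155 genes was 0.706 there and 0.299 to 0.374 in 4 of the other groups. Without it 1 of the 4, Igkv4-69, was called, beside 56 of 12188 genes. Without library 2, 3 of the 4 were called, but so were 3685 of 12347 genes (29.8%).

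In double mutant HSPC all 4 kappa segments were called lower, beside 6.88% of all genes. Both mutant libraries lay below both wild type libraries for each of the 4, as they did for 10.8% of all genes. Igkv1-115, the only member with values above 0 in both groups, differed by -9.06 ± 1.14 (SE, adjusted p = 0.0135). The kappa segments listed at 0 in both double mutant libraries differed by -11.21 in Igkv11-106 (adjusted p = 0.00870), -10.55 in Igkv4-71 (adjusted p = 0.0214) and -7.69 in Igkv4-69 (adjusted p = 0.00121). Ighv6-7, also listed at 0, differed by -4.73. The median was -9.80 over the 4 and 0.02 over all genes. With the compared libraries alone in the fit all 4 stayed called, beside 4691 of 11618 genes, against 1452 of 12421 with all 8 HSPC libraries. Leaving out any 1 of the 4 compared libraries left 1 segment called, Igkv4-69, beside 19 to 51 of all genes, down from 1452.

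In Ly6G+ cells 0 of the 4 members tested were called in the double mutant, and 0% of all 11744 genes were, with limma on 2 residual degrees of freedom. Unadjusted p was under 0.05 for 3 of the 4 and for 1648 of all genes. The differences were -7.17 ± 0.860 (SE, adjusted p = 0.220) in Igkv11-106, -6.26 ± 0.957 (SE, adjusted p = 0.256) in Igkv1-115, -3.97 ± 0.837 (SE, adjusted p = 0.280) in Igkv4-71 and -3.79 ± 1.46 (SE, adjusted p = 0.361) in Igkv4-69, and both mutant libraries lay below both wild type libraries for these 4, as they did for 12.5% of all genes. Ighv6-7 had too few libraries at 1 TPM to be tested. The 2 double mutant Ly6G+ libraries lay far apart, with an SD of the log2 difference of 1, which does not show which of them deviates. Igkv11-106 and Igkv1-115 differed by -6.10 and -4.86 without library 1, and by -8.21 and -7.61 without library 2. With all 12 libraries in the fit both were called lower, beside 979 of 13155 genes called in either direction.

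Between the wild type populations, 0 of the 5 were called in Ly6G+ cells against HSPC, while 19.9% of all 13155 genes were called lower and 18.7% higher, and 0 of the 5 had an unadjusted p under 0.05 (limma). The differences were -0.39 ± 1.19 (SE, adjusted p = 0.821) in Igkv11-106, -0.54 ± 1.58 (SE, adjusted p = 0.812) in Igkv4-71, -0.52 ± 1.64 (SE, adjusted p = 0.829) in Ighv6-7, -2.16 ± 1.24 (SE, adjusted p = 0.197) in Igkv1-115 and -2.23 ± 1.13 (SE, adjusted p = 0.150) in Igkv4-69. Ighv6-7 gave 2.75 (adjusted p = 0.0324) without wild type Ly6G+ library 2 and -3.75 (adjusted p = 0.0145) without library 1, so its direction rests on which library is used. Igkv1-115, at nearly the same level in both replicates, was called lower when only the 4 wild type libraries were fitted (-2.15), where 71.8% of all genes were called.

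**Figure D4:**
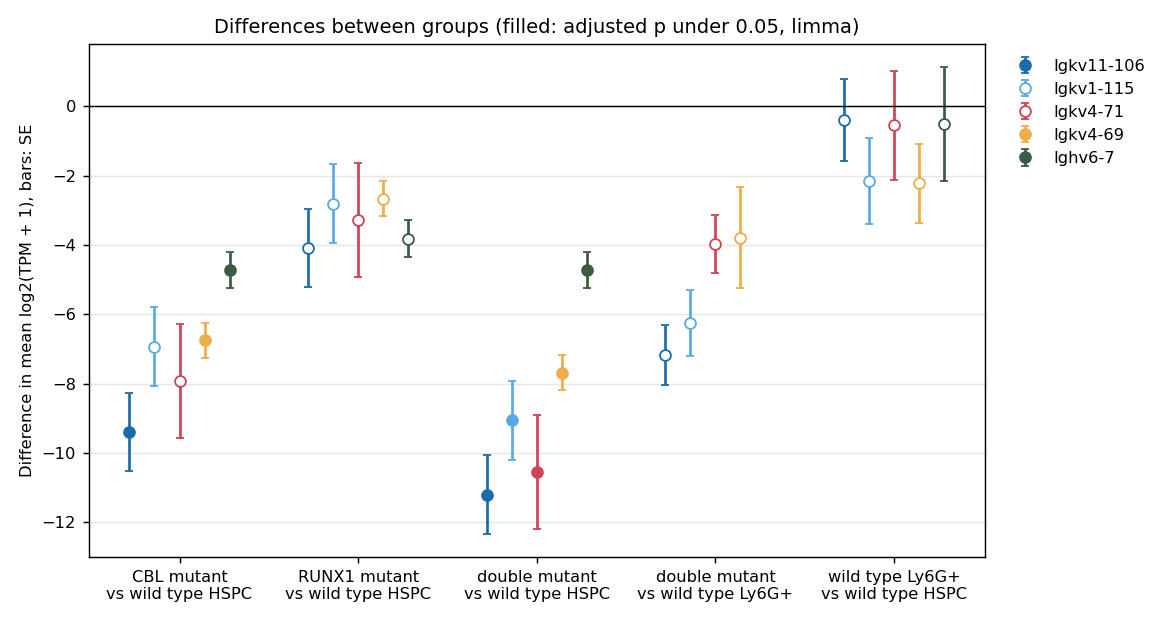
Points give the difference in mean log2(TPM + 1) (vertical axis, bars: SE) of each V segment in each of the 5 comparisons (horizontal axis), filled where the adjusted p is under 0.05. All points of the mutant comparisons lie below 0, from -2.67 to -11.21, and those of the last comparison lie between -0.39 and -2.23. Ighv6-7 met the membership rule only through wild type libraries.

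The other parts of the same chains gave a reference for the V segments. Of the 17 constant and joining genes with a row, 10 were called lower in CBL mutant, 0 in RUNX1 mutant (12 with an unadjusted p under 0.05) and 15 in double mutant HSPC. The shares of all genes called lower were 0.242%, 0.0403% and 6.88%. None of 16 constant and joining genes tested was called in double mutant Ly6G+ cells (13 with an unadjusted p under 0.05). In wild type Ly6G+ cells against HSPC 11 of 17 were called lower, beside 19.9% of all genes. Igkc stood at 38636 and 40304 TPM in wild type HSPC and at 19.9 and 24.9 TPM in double mutant HSPC. Kappa V segments summed to 11.0 and 10.9 TPM per 100 TPM of Igkc in wild type HSPC, 4.36 and 11.1 in CBL mutant, 30.1 and 2.17 in double mutant and 8.79 and 12.8 in RUNX1 mutant HSPC. In wild type Ly6G+ libraries the ratio was 26.9 and 27.7, above both wild type HSPC libraries, and in double mutant Ly6G+ libraries it was 33.5 and 17.3. The kappa J segments were ordered the other way: per 100 TPM of Igkc they summed to 33.9 and 34.3 in wild type HSPC and 11.2 and 14.04 in wild type Ly6G+ libraries. These ratios were not tested.

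Isotypes differed between the same libraries. Ighm, the constant gene of IgM, made up 10.3% and 10.1% of heavy constant TPM in wild type HSPC and 95.0% and 94.0% in wild type Ly6G+ libraries. The share is over the 6 heavy constant genes with a row. It was 76.1% and 69.5% in CBL mutant, 99.1% and 99.4% in double mutant and 22.5% and 55.9% in RUNX1 mutant HSPC. The double mutant Ly6G+ libraries had 89.0% and 90.8%. The wild type HSPC libraries thus had the lowest Ighm shares of the 12.

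**Figure D5:**
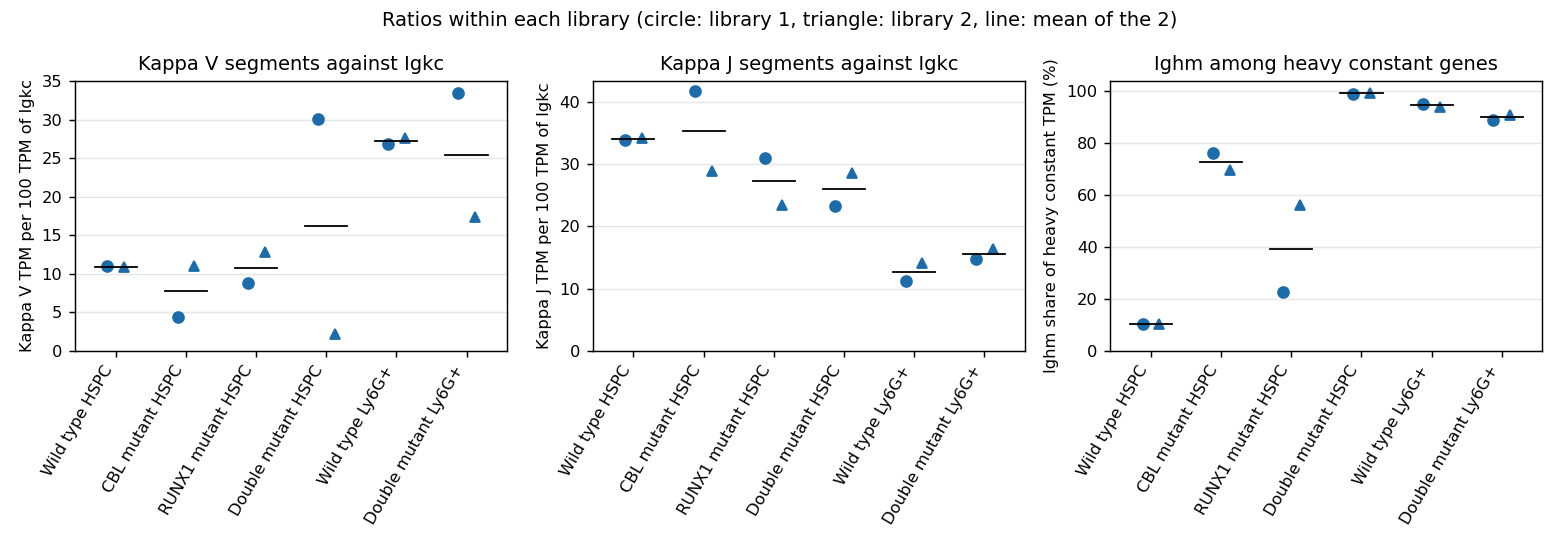
The panels show, by group (horizontal axis), the TPM of kappa V segments and of kappa J segments per 100 TPM of Igkc and the percentage of heavy constant TPM due to Ighm (vertical axes), with library 1 as a circle, library 2 as a triangle and a line at the mean of the 2. Wild type Ly6G+ libraries lie above wild type HSPC in the V ratio and the Ighm share and below them in the J ratio.

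Markers of the cells that make antibody are given beside the V segments. Of 13 plasma cell genes tested, 3 were called lower in CBL mutant HSPC (Sdc1, Jchain and Tnfrsf17), 0 in RUNX1 mutant HSPC (10 with an unadjusted p under 0.05) and 7 in double mutant HSPC. Over all genes 0.242%, 0.0403% and 6.88% were called lower, and 2064 of 12421 had an unadjusted p under 0.05 in RUNX1 mutant HSPC. The summed level of the list was 1509 and 1412 TPM in wild type HSPC, 234 and 244 TPM in CBL mutant, 383 and 535 TPM in RUNX1 mutant and 273 and 278 TPM in double mutant HSPC. In Ly6G+ cells it was 538 and 487 TPM in wild type and 287 and 249 TPM in double mutant libraries. The wild type sums came mostly from Jchain, so the lower sums in mutants largely describe that gene. Xbp1, the next highest of the list in wild type HSPC, stood at 128 and 113 TPM there and 150 and 160 TPM in double mutant HSPC. Jchain, which links IgM and IgA into larger complexes, stood at 1204 and 1138 TPM in wild type HSPC, 20.9 and 36.0 TPM in CBL mutant, 77.1 and 288 TPM in RUNX1 mutant and 0.604 and 0.911 TPM in double mutant HSPC, and at 346 and 293 TPM in wild type and 7.12 and 22.0 TPM in double mutant Ly6G+ libraries.

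Of 11 mature B cell genes tested between the wild type populations, 9 were called higher in Ly6G+ cells, beside 18.7% of all genes. Of 13 plasma cell genes 4 were called lower, beside 19.9% of all genes, and 1 higher. In double mutant HSPC 2 of 6 mature B cell genes tested were called lower with limma, beside 6.88% of all genes. They were Cd79a (-3.75, adjusted p = 0.0349) and Bank1 (-1.07, adjusted p = 0.0363). The summed level of the mature B cell list was 145 and 134 TPM in wild type HSPC, 155 to 203 TPM in CBL mutant, 90.9 to 121 TPM in RUNX1 mutant and 112 to 236 TPM in double mutant HSPC, 351 and 394 TPM in wild type Ly6G+ and 1954 and 744 TPM in double mutant Ly6G+ libraries, mostly from Cd74, which other antigen-presenting cells also express. Ms4a1, a B cell surface gene, was listed at 0 in double mutant HSPC library 2. Of 8 B cell precursor genes tested in HSPC, 0 were called in CBL, RUNX1 or double mutant cells. Unadjusted p (limma) was under 0.05 for 2, 4 and 1 of them, beside 1348, 2064 and 4268 of 12421 genes. The part of these cells in the V segment values was not tested.

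The labelled cell types were checked by their own markers. Kit stood at 24.5 to 229 TPM in the HSPC libraries and 5.89 to 38.0 TPM in the Ly6G+ libraries, and Ly6g at 14.2 to 586 TPM in HSPC and 389 to 2026 TPM in Ly6G+ libraries. Ly6g was thus present in the HSPC libraries, wild type ones included (482 and 504 TPM). The 8 neutrophil genes summed to 320286 and 345483 TPM in wild type HSPC and 402638 and 396454 TPM in wild type Ly6G+ libraries. In the latter 2 of the 8, Retnlg and Mmp8, were called higher, beside 18.7% of all genes. S100a8 stood at 189735 and 209223 TPM in wild type HSPC and 174061 and 164063 TPM in wild type Ly6G+ libraries. The neutrophil list thus separated the wild type populations only in part. In double mutant HSPC 6 of 8 neutrophil genes were called lower, as were the V segments, beside 6.88% of all genes.

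Likeness over the 12 libraries was described by Pearson's r of log2(TPM + 1) across 13155 genes, with no test, since the libraries share groups. Igkv11-106 was most like Igkc (r = 0.964), Igkv1-115 and Igkv4-69 were most like the kappa joining segment Igkj1 (r = 0.981 and 0.942), and Igkv4-71 was most like Igkv11-106 (r = 0.939). Ighv6-7 was most like Tac2 (r = 0.835), which encodes a tachykinin, and then Tnfrsf17 (r = 0.822), a plasma cell receptor. No immunoglobulin gene was among its 4 closest. Jchain was among the 4 closest genes of Igkv11-106 and Igkv1-115.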

How the data were processed

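RNA sequencing of 12 libraries in 6 groups of 2 gave 1 table. The tools listed in the submitters' processing notes are kallisto, CASAVA 1.8 and bcl2fastq, and the build is mm10. The kallisto version, word length, annotation release and joining of transcripts to genes are not given in the sources used here. The authors deposited TPM for 28987 genes, summing to 933370 to 981994 per library. TPM keep no read numbers, so depth is unknown and no counting interval or floor can be given. Symbols were found for 27458 identifiers (94.7%), and the other 1529 could not be searched for V segments.

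TPM were scaled by trimmed means (TMM), and log2(TPM + 1) was fitted with limma 3.58.1 in R 4.3.3 (trend, robust), on genes with 1 TPM or more in at least 2 libraries of the fit. Fits held 8 HSPC, 4 Ly6G+ or all 12 libraries (4, 2 and 6 residual degrees of freedom). Adjustment was by Benjamini-Hochberg over all genes tested. The limma script was checked on simulated data. Composition was computed on every V row and compared between 4 wild type and 8 mutant libraries by exact permutation (smallest p 0.00404). The lambda share planned as a measure gave no value.

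Words of 31 bases, the usual kallisto length, were compared over GENCODE vM21 transcripts (GRCm38, the assembly of mm10). V exons were aligned globally. The promoter table held 0 of the members, so no promoter is shown.

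Segments named were the 6 highest per locus in wild type, the leader of each library, called members, rows next to the threshold and members higher in a mutant group, of which there were 0. List genes named were those with the highest wild type level or the smallest p. Sdc1, Ms4a1, Kit, Ly6g, Iglc2, Ighm and the likeness rule were added for description after values were seen. The members and lists were chosen with earlier results of these data known. Alternatives were other scaling, pseudocount, filters, a replicate block, other sets of libraries and leaving out each library, and, chosen after seeing the data, fits without the libraries that stand apart.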

Additional observations from a re-analysis of the deposited data

How the results depend on the processing

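The direction of the V segments held in all 200 alternative values of the mutant comparisons, but their calls did not. These values include Ighv6-7 in HSPC, whose lower level in mutants was in part fixed by the rule. Of 255 alternative values over single segments, 202 kept their side of the threshold and direction, 30 lost a call, 20 gained one and 3 changed sign. Leaving out 1 library of the compared groups gave 0 to 0 called V segments, Ighv6-7 included, in CBL mutant HSPC (3 with all libraries), beside 2 to 9 of all genes. It gave 0 to 4 in RUNX1 mutant HSPC (0), beside 1 to 3685 genes, and 1 to 1 in double mutant HSPC (5), beside 19 to 51 genes. It gave 0 to 2 in double mutant Ly6G+ cells (0), beside 1 to 6975 genes, and 0 to 1 in wild type Ly6G+ cells against HSPC (0), beside 2035 to 2843 genes. Where this left a single library, its spread was taken from the other groups of the fit. Fewer libraries also left fewer residual degrees of freedom. Unscaled TPM gave 1 call in RUNX1 mutant HSPC (Ighv6-7), with the median of all genes at 0.45. In Ly6G+ cells the double mutant gave 2 calls with all 12 libraries, beside 979 genes. Wild type Ly6G+ cells against HSPC gave 1 call with the 4 compared libraries alone and 1 without RUNX1 mutant library 1 and double mutant Ly6G+ library 1, both times Igkv1-115, beside 71.8% and 64.7% of all genes. Single calls lost in CBL mutant HSPC were Ighv6-7 with a pseudocount of 0.1 (adjusted p = 0.108) and Igkv11-106 with no filter (adjusted p = 0.0522). Signs changed between the wild type populations for Igkv11-106 without wild type Ly6G+ library 1 (0.18, against -0.90 without library 2), for Igkv4-71 without library 2 (0.42, against -1.45 without library 1) and for Ighv6-7 without library 2 (2.75, against -3.75 without library 1). Beyond these constructions the cause was not tested.

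The replicate numbers do not pair the samples by the labels, and deviations of same-numbered libraries correlated at -0.0131 to 0.198 over genes. With a replicate block the double mutant Ly6G+ comparison gave 2 calls in place of 0, beside 31 genes, and no other count moved. Among the composition measures, the heavy share passed the test without double mutant Ly6G+ library 1, with a difference of -1.34 percentage points (exact permutation adjusted p = 0.0364). This share is Ighv6-7 alone, which met the membership rule only through wild type libraries. The difference rests on wild type Ly6G+ library 1, without which it was -0.13 (exact permutation adjusted p = 0.570). Leaving out each library gave -1.63 to -0.13 percentage points for the heavy share, 16.6 to 27.9 for the leading segment's share and -1.16 to -0.70 for the effective number. The number of members was 5 under every level and library minimum tried. The unknown depth and the 2 libraries per group limit all values near 0.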

Other observations

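Heavy joining segments were above 0 in libraries where the heavy V segment was listed at 0. Ighj genes summed to 272 and 124 TPM in CBL mutant HSPC, where Ighv6-7 was listed at 0 and the heavy constant genes summed to 54.6 and 92.3 TPM. In wild type HSPC the sums were 3031 and 2982 TPM of Ighj genes and 3019 and 2816 TPM of heavy constant genes. RUNX1 mutant library 1, also with Ighv6-7 at 0, had 272 TPM of Ighj genes beside 228 TPM of heavy constant genes. The Ighj sums were 28.8 and 9.35 TPM in double mutant HSPC, beside 20.9 and 11.9 TPM. Double mutant Ly6G+ library 1, where Ighv6-7 stood at 0.844 TPM, had 283 TPM of Ighj genes beside 136 TPM of heavy constant genes. Its replicate, with Ighv6-7 at 0, had 47.9 and 148 TPM. With 1 heavy V row above 0 for the whole locus, these sums do not compare V with J segment usage.

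Library 1 of RUNX1 mutant HSPC and of double mutant Ly6G+ cells, the groups whose replicates differed most, had the highest levels of Dntt. This gene encodes the enzyme adding untemplated bases at V segment junctions. It stood at 789 TPM in double mutant Ly6G+ library 1 against 15.1 TPM in library 2, and at 95.4 TPM in RUNX1 mutant library 1 against 7.63 TPM in library 2. Rag2, a subunit of the recombinase that cuts beside V segments, stood at 39.4 and 0.868 TPM in the double mutant Ly6G+ libraries and 5.67 and 0.294 TPM in the RUNX1 mutant libraries. Il7r, Sox4 and Erg were also higher in library 1 of both groups. Sox4 stood at 106 and 3.42 TPM in the double mutant Ly6G+ libraries and 86.6 and 16.5 TPM in the RUNX1 mutant libraries. Rag1 was higher in library 1 of double mutant Ly6G+ cells (18.6 and 1.29 TPM). Vpreb3 was higher in library 1 of RUNX1 mutant HSPC (2.96 and 0.217 TPM). Other B cell precursor genes did not have higher levels in library 1. In double mutant Ly6G+ cells these were Igll1 (0.106 and 8.02 TPM), Vpreb1 (0.438 and 9.57 TPM), Vpreb2 (1.04 and 1.73 TPM) and Vpreb3 (2.94 and 11.9 TPM). In RUNX1 mutant HSPC they were Igll1 (0.318 and 1.30 TPM), Rag1 (0.0366 and 0.0610 TPM), Vpreb1 (1.34 and 1.35 TPM) and Vpreb2, listed at 0 in both libraries. The summed level of the list was 1055 and 93.4 TPM in the double mutant Ly6G+ libraries and 309 and 85.6 TPM in the RUNX1 mutant libraries. The sums thus went the way of Dntt and Rag2, whereas not every gene of the list did.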
